A study of Homo sapiens with 4 samples.

Results

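The Notch genes described here are *NOTCH1*, *NOTCH2* and *NOTCH3* (receptors), *JAG1*, *JAG2* and *DLL1* (ligands), *HES1* and *HEY1* (target genes) and *MFNG* (a glycosyltransferase that modifies the receptors). They were chosen by symbol, with earlier results of these data known. Of the 9, 8 were found among the 16811 genes of the deposited table. *DLL1* was not analysed here. RNA-seq compared MCF12A cells edited at *C1orf132* with wild-type MCF12A cells, with 2 biological replicates of each. MCF12A is a non-tumorigenic mammary epithelial line, which the labels enter under breast cancer cell lines. In the edited cells the study excised the p2 promoter of *C1orf132*, a long noncoding RNA gene that hosts 2 miR-29 family members. It describes the edited colonies as knocked-down. The deletion was made with CRISPR/Cas9 and guide RNA pairs, and single GFP-positive cells were sorted and grown into colonies. The sources used here do not say how many colonies were sequenced, or whether the wild-type cells had been transfected and sorted, so the deletion and this handling cannot be told apart. All cells grew in DMEM/F12 with horse serum, EGF, hydrocortisone, cholera toxin and insulin. *C1orf132* was not analysed here, so the groups were taken from the labels and the deletion was not checked in these libraries.

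Notch receptors are cut and activated when a Jagged or Delta-like ligand on a neighbouring cell binds them. The released intracellular domain joins the DNA-binding protein RBPJ and switches on target genes, among them the HES and HEY repressors. In the mammary gland, Notch activity is known for its part in the choice between luminal and basal fates.

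Each value is a normalized signal in place of a read count. It is taken here to be scaled between libraries and for transcript length, while the normalization method is not given in the sources used. The values of a library summed to between 1444644 and 1655437. With edited replicate 1 set to 1, the relative depth was put at 1.12 for edited replicate 2. For wild-type replicates 1 and 2 it was put at 0.930 and 1.00. Each is the ratio of values to edited replicate 1 that the most genes shared exactly, which were 85 to 150 genes. It was taken as depth and not measured from total reads. Groups were compared with limma on log2(value + 1), and a gene was called at a Benjamini-Hochberg adjusted p under 0.05. The 9590 genes whose values averaged at least 10 over all 4 libraries were tested together, and *HEY1* and *MFNG*, which are lower, were tested among all 16811 genes. On this scale the change of a low gene comes out too small. With 2 libraries in each group, exact two-sided permutation cannot reach a p under 0.333.

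Markers of cell type differed between the groups, and these values stand beside every Notch result. Over the 9590 genes tested together, 4.20% were called lower and 2.89% higher. Markers with a mean under 10 were tested among all 16811 genes, where 3.40% were called lower and 1.33% higher. Of 11 epithelial markers, all listed, 9 fell in edited cells and 0 rose, and their summed signal was 208 and 251 in edited against 1801 and 2060 in wild-type libraries. The range of their log2 fold changes ran from -7.15 for *RAB25* to -1.08 for *DSP*, which was not called (adjusted p = 0.0783 from limma), and *GRHL2*, an epithelial transcription factor, was near 0 in edited cells (0.137 and 0.0460 against 26.0 and 26.2). Of 11 basal mammary markers 3 fell and 0 rose, with sums of 5532 and 9350 in edited and of 16130 and 25243 in wild-type libraries, and log2 fold changes from -3.08 (*KRT14*, adjusted p = 0.0512) to -0.28 (*ITGA6*, adjusted p = 0.700). Of the 7 listed of 10 luminal markers, *EHF* fell (-6.30) and *KRT8* rose (1.01, adjusted p = 0.0449), but *KRT8* was not called without any 1 of the 4 libraries (adjusted p from 0.0534 to 0.224) or with cyclic loess normalization. Of the 8 listed of 9 mesenchymal markers 3 rose, among them *VIM* (2.16), while *SNAI2* stood at -0.30 (adjusted p = 0.391). The mesenchymal sum was 1072 and 5056 in edited and 990 and 585 in wild-type libraries. *FN1*, which was not called (adjusted p = 0.707 from limma), made up most of the sum in edited replicate 2. It was at 171 and 3735 in edited and at 645 and 314 in wild-type libraries. *VIM* was at 824 and 1215 in edited and at 257 and 194 in wild-type libraries. None of 8 endothelial markers was listed, nor were the leukocyte genes *PTPRC* and *CD3E*. Of the 4 listed leukocyte markers *ITGAM* fell (-3.87), and *CD68* stood at 0.05 (adjusted p = 0.898). Of the 3 listed of 10 fibroblast markers *COL1A1* fell (-2.06), and *DCN* stood at 3.30 (adjusted p = 0.0974). The part of these shifts in the Notch results was not tested. In bulk RNA, fewer cells of a type and less RNA per cell cannot be told apart.

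Of the 8 Notch genes, 5 fell in edited cells, 0 rose and 3 were not called. Those that fell were the receptors *NOTCH1* and *NOTCH3*, both Jagged ligands and the target *HES1*. Among the 9590 tested genes 4.20% were called lower and 2.89% higher, 7.09% in all. Without the filter on the mean the same 5 genes were called, against 3.40% called lower, 1.33% higher and 4.73% in all among 16811 genes. The median log2 fold change of the 8 genes was -1.37, beside 0.01 over all listed genes and 0.09 over the 9590. The values of both edited libraries lay below those of both wild-type libraries for 6 of the 8, which held for 30.2% of all listed genes. Because the 8 genes were chosen with earlier results of these data known, these comparisons describe the list and do not test it.

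**Figure D1:**
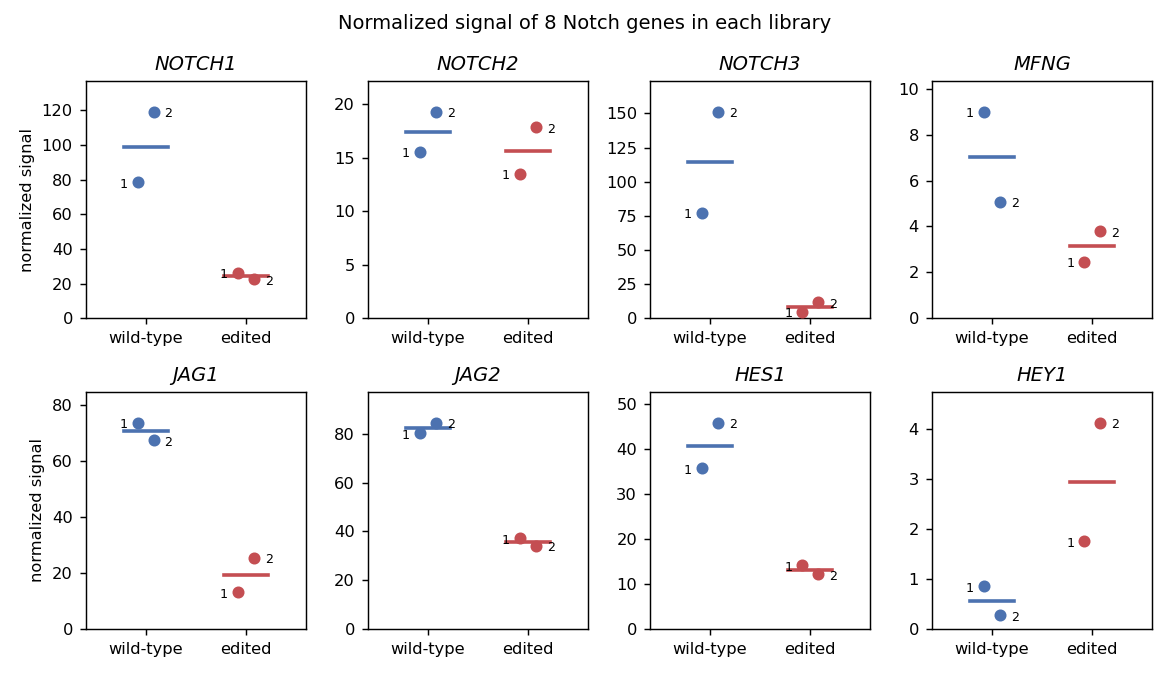
Normalized signal (vertical axis, linear from 0, a scale of its own in each panel) of 8 Notch genes in 2 wild-type (blue) and 2 edited (red) MCF12A libraries. Points are libraries marked with their replicate number and bars are group means. The groups overlap for *NOTCH2*, edited libraries are lower in 6 panels, and *HEY1* is higher in edited libraries.

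*NOTCH1* encodes a receptor of broad expression in epithelia (chromosome 9, 136494433 to 136546048, minus strand, RefSeq on GRCh38.p14). Its signal stood at 26.3 (replicate 1) and 22.5 (replicate 2) among edited libraries, whereas the wild-type replicates 1 and 2 had 78.5 and 119. Each edited library was far below both wild-type libraries, and the spread was wider among wild-type than among edited cells. The wild-type mean of 98.8 ± 28.7 (SD, n = 2) was 4.05 times the edited mean of 24.4 ± 2.69 (SD, n = 2). By limma the log2 fold change was -1.95 with a standard error of 0.25 (adjusted p = 0.0199).

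*NOTCH3*, a receptor best known from vascular smooth muscle and also studied in luminal mammary cells, showed the strongest fall of the 8 genes (chromosome 19, 15159038 to 15200995, minus strand). It measured 4.72 and 11.5 in edited libraries 1 and 2, against 77.4 and 151 in wild-type libraries 1 and 2. The replicates of each group differed widely from each other, yet the groups stayed well apart. Edited cells held 8.12 ± 4.82 (SD, n = 2) and wild-type cells 114 ± 52.1 (SD, n = 2), so that the edited mean was 7.11% of the wild-type mean. limma put the log2 fold change at -3.69 with a standard error of 0.47 (adjusted p = 0.0199).

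*NOTCH2*, the remaining listed receptor, was not called (chromosome 1, 119911553 to 120069662, minus strand). Its signal was 13.5 and 17.8 in edited and 15.6 and 19.3 in wild-type libraries, so the groups overlapped. The log2 fold change was -0.15, with a 95% interval from -0.72 to 0.43 (adjusted p = 0.686 from limma), which leaves room for a moderate fall or a smaller rise. *NOTCH2NL*, a near-identical partial copy of *NOTCH2* on the same chromosome, was listed at 9.82 and 11.7 in edited and at 17.7 and 31.0 in wild-type libraries. Its log2 fold change was -1.06 (adjusted p = 0.0845 from limma). Reads that fit both genes can be assigned to either, so the value of *NOTCH2* is uncertain.

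The make-up of the receptor signal was also compared within each library. The sum of *NOTCH1*, *NOTCH2* and *NOTCH3* was 44.5 and 51.9 in edited and 172 and 290 in wild-type libraries. Within each library *NOTCH3* made up 10.6% and 22.2% of this sum in edited cells and 45.1% and 52.2% in wild-type cells. *NOTCH2* made up 30.3% and 34.4% in edited and 9.08% and 6.66% in wild-type cells. Both shares were separated between the groups, by -32.3 and 24.5 percentage points, each with an exact two-sided permutation p of 0.333, the smallest that this design allows. The share of *NOTCH1* overlapped (59.1% and 43.4% against 45.8% and 41.2%), with a difference of 7.76 percentage points (exact permutation p = 0.667). Shares do not depend on the scaling between libraries, but comparing genes depends on any scaling for transcript length, which is not given.

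**Figure D2:**
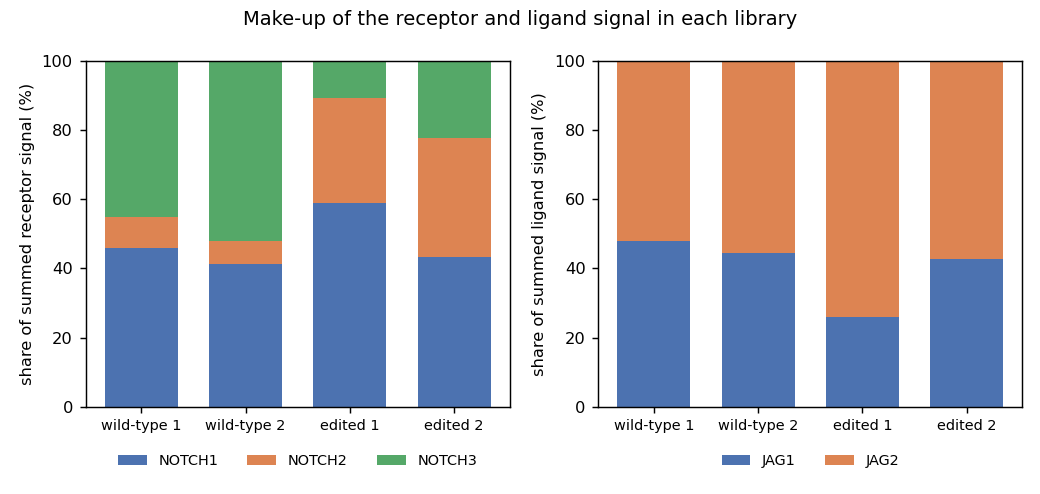
Share (vertical axis, percent of the sum, drawn from 0) of each receptor in the summed receptor signal (left) and of each Jagged ligand in the summed ligand signal (right), for each of the 4 libraries. *NOTCH3* is 45.1% and 52.2% in wild-type and 10.6% and 22.2% in edited libraries, and *JAG1* ranges from 26.1% in edited replicate 1 to 47.9% in wild-type replicate 1.

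Both Jagged ligands, transmembrane proteins that bind Notch receptors on adjacent cells, fell in edited cells. *JAG1* (chromosome 20, 10637684 to 10673999, minus strand) had a signal of 13.1 in edited replicate 1 and 25.4 in edited replicate 2, while wild-type replicate 1 held 73.6 and wild-type replicate 2 held 67.4. The wild-type libraries were close together, and edited replicate 1 was the lowest of the 4. Group means were 19.3 ± 8.72 (SD, n = 2) and 70.5 ± 4.42 (SD, n = 2), 3.66 times as high in wild-type cells, and limma's log2 fold change was -1.89 with a standard error of 0.32 (adjusted p = 0.0352). The values of *JAG1* are whole multiples of a step that corresponds to at least 79, 172, 413 and 407 reads in that order, so counting error is small beside the difference.

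*JAG2* had the smallest standard error of the 5 genes that fell (chromosome 14, 105140995 to 105168776, minus strand). It stood at 37.2 and 34.0 in edited and at 80.1 and 84.5 in wild-type libraries. The gap between the groups was many times the difference within either group. The means were 35.6 ± 2.26 (SD, n = 2) and 82.3 ± 3.12 (SD, n = 2), a ratio of 2.31, and limma's log2 fold change was -1.19 with a standard error of 0.17 (adjusted p = 0.0251). Genes of chromosome 14 were lower as a whole: over its 296 tested genes the log2 fold changes had a median of -0.46, and 86.1% were below 0. On chromosome 9, where *NOTCH1* lies, the median was -0.20 over 343 genes, while it was 0.22 on chromosome 19 (*NOTCH3*), 0.21 on chromosome 20 (*JAG1*) and 0.04 on chromosome 3 (*HES1*). The part of the chromosome-wide shifts in the values of *JAG2* and *NOTCH1* was not tested.

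The *JAG1* to *JAG2* ratio within a library was 0.352 and 0.749 in edited and 0.919 and 0.797 in wild-type cells. It was lower in both edited libraries, and edited replicate 2 lay close to wild-type replicate 2. The share of *JAG1* in the ligand sum was lower by 11.7 percentage points in edited cells (34.4% against 46.1%, exact permutation p = 0.333), a difference of the size of the SD between edited replicates, which was 11.9 percentage points.

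*HES1* encodes a basic helix-loop-helix repressor and is the classic direct target of Notch. Its RefSeq span is 194136148 to 194138732 on chromosome 3, plus strand. The RefSeq promoter, from 250 bases before to 50 after the start (chr3:194135898-194136197, GRCh38.p14, plus strand), is printed here. The reason is that *HES1* is the called target among the Notch genes described here. Of the 6 of these with a listed promoter, it is also the only gene to hold a match. *HEY1* and *MFNG* were not searched. The capitals mark matches to GTGGGAA and, on the other strand, to GTGTGAA (read TTCACAC), the forms of the RBPJ motif that were searched on both strands.
HES1: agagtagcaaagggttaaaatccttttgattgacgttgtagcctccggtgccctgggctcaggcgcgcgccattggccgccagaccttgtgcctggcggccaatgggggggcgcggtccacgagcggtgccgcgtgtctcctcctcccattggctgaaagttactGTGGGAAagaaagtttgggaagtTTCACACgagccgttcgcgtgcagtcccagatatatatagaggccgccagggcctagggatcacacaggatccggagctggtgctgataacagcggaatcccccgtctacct

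Edited replicate 1 had a *HES1* signal of 14.1 and edited replicate 2 of 12.1, whereas wild-type replicate 1 had 35.7 and wild-type replicate 2 had 45.8. Both edited libraries were well below both wild-type libraries. The means were 13.1 ± 1.42 (SD, n = 2) and 40.7 ± 7.18 (SD, n = 2), 3.11 times as high in wild-type cells, and its log2 fold change by limma was -1.56 with a standard error of 0.21 (adjusted p = 0.0211). These values stand for at least 285, 274, 670 and 927 reads in the same order.

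*HES4*, a paralog of *HES1*, carries the same pair of motifs in the same head-to-head order, and both stretches are set side by side to show this (*HES1* chr3:194136063-194136092, plus strand; *HES4* chr1:1000145-1000174, minus strand).
HES1: GTGGGAAagaaagtttgggaagtTTCACAC
HES4: GTGGGAAagaatgcggagccgggTTCACAC
Over 35116 RefSeq promoters of the same length, 6.25% held GTGGGAA, 2.999% held GTGTGAA and 0.262% held both. Of 46 other pathway genes with a promoter in the table, 6 held a match to either motif in any of their promoters, namely *CTBP2*, *HES4*, *RBPJ*, *SPEN*, *TLE1* and *TLE2*. The promoters of *HES2*, *HES6*, *HES7* and *NRARP*, which are grouped with *HES4* under targets, held 0 matches. Some genes have several promoters, so this count per gene cannot be set against the shares per promoter. *HES4* itself had a signal of 19.5 and 15.6 in edited and of 29.4 and 23.1 in wild-type libraries, and its log2 fold change was -0.55 (adjusted p = 0.149, limma). It was lower in both edited libraries and did not pass the threshold. A motif match is a description of the sequence and not evidence of binding.

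*HEY1*, a repressor of the related HEY family, pointed the other way at a very low level (chromosome 8, 79764010 to 79767767). Its signal was 1.75 and 4.13 in edited and 0.854 and 0.273 in wild-type libraries. Both edited libraries were above both wild-type libraries, and the replicates of each group differed from each other more than 2-fold. The edited mean was 5.22 times the wild-type mean (2.94 ± 1.68 against 0.564 ± 0.410, SD, n = 2 each), and limma's log2 fold change was 1.29, with a standard error of 0.40 and an adjusted p of 0.114. Read numbers of at least 64 and 169 in edited and 29 and 10 in wild-type libraries lie behind these values. The 10 reads have an exact Poisson 95% interval from 4.80 to 18.4 reads, which covers counting error only, as several reads without molecular identifiers can come from the same molecule.

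*MFNG*, Manic Fringe, adds N-acetylglucosamine to O-fucose on Notch receptors and thereby alters which ligands they answer to (chromosome 22, 37469063 to 37486384). It was measured at 2.47 and 3.79 in edited and at 8.99 and 5.06 in wild-type libraries. Edited libraries were lower without overlap, but wild-type replicate 2 was nearer to edited replicate 2 than to wild-type replicate 1. The log2 fold change was -0.93, with a standard error of 0.34 and an adjusted p of 0.147 from limma. These are low values, from at least 18, 31, 61 and 37 reads.

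Within wild-type cells the 8 genes ran, by mean signal taken as scaled for length, from *NOTCH3* through *NOTCH1*, *JAG2*, *JAG1*, *HES1*, *NOTCH2* and *MFNG* to *HEY1*. The ranges of *NOTCH3*, *NOTCH1* and *JAG2* overlapped, so these neighbours could not be ordered, whereas each later gene lay below the one before it in both libraries. Within edited cells the order was *JAG2*, *NOTCH1*, *JAG1*, *NOTCH2*, *HES1*, *NOTCH3*, *MFNG* and *HEY1*. There the ranges of *NOTCH1* and *JAG1*, of *JAG1*, *NOTCH2* and *HES1*, and of *MFNG* and *HEY1* overlapped. *NOTCH3* thus stood above *NOTCH2* in both wild-type libraries and below it in both edited libraries.

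**Figure D3:**
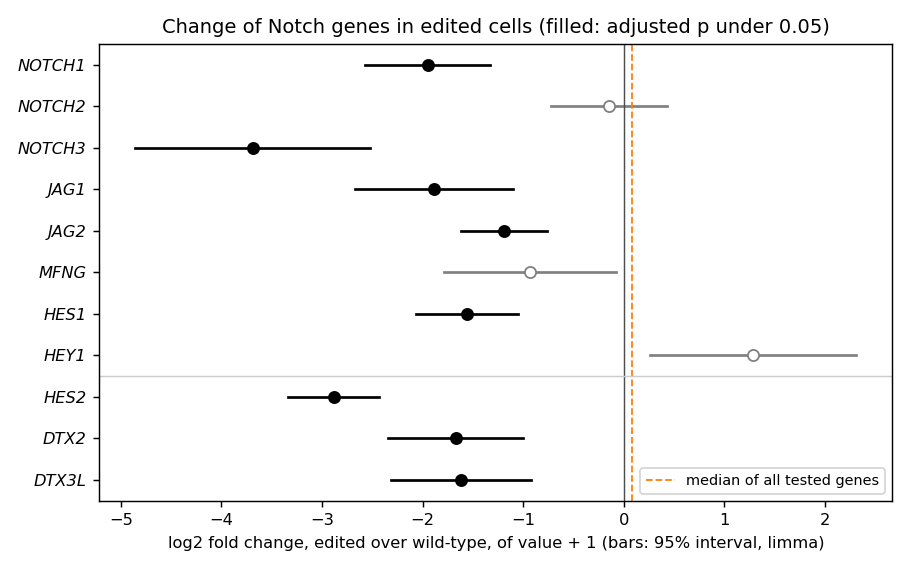
Log2 fold change, edited over wild-type, of value + 1 (horizontal axis) for the 8 Notch genes and, under the grey line, the 3 other pathway genes that were called. Bars are 95% intervals from limma, filled points have an adjusted p under 0.05, and the dashed line is the median of the 9590 tested genes (0.09). The interval of *NOTCH2* spans 0.

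With a wild-type library left out the 5 fold changes kept their direction and the calls were lost. In such a fit the lone wild-type library is assumed to vary like the edited ones, whose difference gives the spread together with the variance shared across genes. Without wild-type replicate 1 the 5 genes kept log2 fold changes from -4.17 to -1.23, with adjusted p from 0.0569 to 0.109, and 0 of them passed 0.05. Without wild-type replicate 2 they ranged from -3.21 to -1.15, with adjusted p from 0.105 to 0.185, and again 0 passed, and the calls over the 9590 genes dropped to 47 and 4 in these fits. Without edited replicate 1 or edited replicate 2 all 5 were still called. At the adjusted p of 0.001 that the study used for its RNA-seq, 0 of the 8 Notch genes and 1 of the 9590 genes passed in limma, where 3095 had an unadjusted p under 0.05. The study itself reported many more genes at this threshold. Its RNA-seq test is not given, and limma was run here on the normalized signal, so the counts are not like for like.

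Most other genes of the pathway did not pass the test. Of 60 further genes listed by role, 52 were in the table. In edited cells 3 fell, 0 rose and 49 were not called, and all 3 were among the 39 with a mean of at least 10. This share is near the background of 4.20% called lower and 7.09% in all over the 9590 tested genes, so the count is no result about these genes as a group. Their median log2 fold change was -0.23, with 34 below 0 and 18 above.

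**Figure D4:**
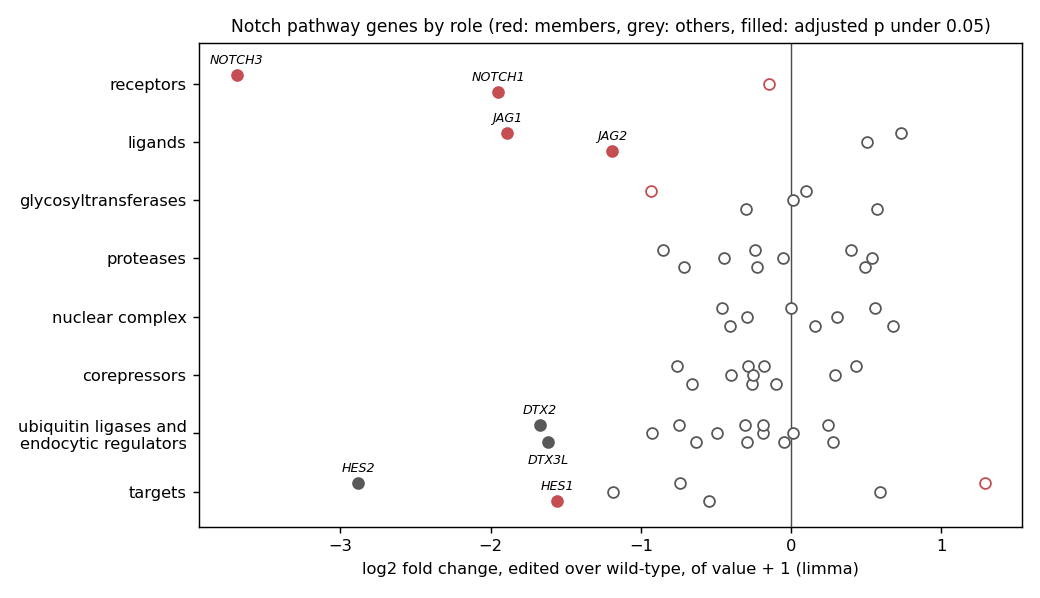
Log2 fold change, edited over wild-type, of value + 1 (horizontal axis) of 8 Notch genes (red) and 52 other pathway genes (grey), grouped by role (vertical axis). Filled points have an adjusted p under 0.05 from limma and are named. The 8 filled points are all below 0, and those of the proteases, nuclear complex and corepressors are all open.

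*HES2*, a helix-loop-helix repressor of the same family as *HES1*, had the strongest fall among these 52. Its signal was 16.1 and 18.4 in edited and 142 and 124 in wild-type libraries. The replicates were close within both groups, and limma's log2 fold change was -2.88 with a standard error of 0.18 (adjusted p = 0.0033). None of the other 4 listed genes grouped with it under targets, *HES4*, *HES6*, *HES7* and *NRARP*, was called. This grouping follows the gene list, and whether *HES2* or these genes respond to Notch in these cells was not tested. *NRARP*, a target gene that dampens Notch signalling in turn, is named after its values were seen: 1.36 and 1.97 in edited against 4.65 and 5.44 in wild-type libraries, from at least 29, 47, 92 and 116 reads (log2 fold change -1.19, adjusted p = 0.0612 from limma). It lies on chromosome 9, as *NOTCH1* does, where the median log2 fold change was -0.20 and 64.4% of genes were below 0. The part of this shift in the value of *NRARP* was not tested.

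The ubiquitin ligases and endocytic regulators gave the other 2 calls, out of 14 listed genes, beside 7.09% called over the 9590 tested genes. *DTX2*, a Deltex-family ubiquitin ligase, was at 35.4 and 57.5 in edited and at 153 and 139 in wild-type libraries (log2 fold change -1.67, standard error 0.27, adjusted p = 0.0331 from limma). It lies on chromosome 7, where the log2 fold changes of 420 tested genes had a median of -0.19 and 68.6% were below 0. The part of this shift in the value of *DTX2* was not tested. *DTX3L*, another Deltex-family ligase, was at 11.8 and 20.8 in edited and at 49.1 and 51.6 in wild-type libraries (-1.62, standard error 0.28, adjusted p = 0.0378). In both genes edited replicate 1 was the lower of the edited pair, as it was for *JAG1* and *NOTCH3*, while it was the higher for *NOTCH1*, *JAG2* and *HES1*. *HES2* lost its call without wild-type replicate 2 (adjusted p = 0.0680), and *DTX2* and *DTX3L* lost theirs without either wild-type library, with adjusted p up to 0.178 and 0.202. *NUMB*, an endocytic inhibitor of Notch, also singled out after its values were seen, stood at 51.2 and 65.3 in edited and at 111 in each wild-type library. It missed the threshold narrowly (limma adjusted p = 0.0534, log2 fold change -0.93) and lies on chromosome 14. With each other scaling it was called, at adjusted p = 0.0404 with equal library totals, 0.0469 with quantile and 0.0447 with cyclic loess normalization, which brought the calls among the 52 genes to 4. It was not called in limma without the filter (adjusted p = 0.0593), without the variance trend (0.0582) or with the replicate block (0.0797). Over left-out libraries the log2 fold change of *NUMB* ranged from -1.10 to -0.76.

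No gene was called among the enzymes that modify and cut the receptors or among the nuclear proteins they act through. With 7.09% called over the 9590 tested genes and 4.73% over all listed genes, groups this small can hold 0 calls without standing apart. Among 4 further enzymes that glycosylate Notch the most abundant was *POFUT1*, which places the O-fucose that the Fringe enzymes extend (log2 fold change 0.57, adjusted p = 0.0895 from limma). Of 9 proteases and gamma-secretase subunits 0 were called, and the most abundant, *NCSTN*, was at -0.05 (adjusted p = 0.890). Of 8 listed genes of the nuclear complex 0 were called. Its most abundant gene *SNW1*, on chromosome 14, was at -0.29 (adjusted p = 0.369 from limma). *RBPJ*, the DNA-binding partner of the Notch intracellular domain, was at 0.56 (adjusted p = 0.110). None of 10 corepressor genes was called (*CTBP1*, the most abundant, 0.43, adjusted p = 0.178), and neither were the 2 listed non-classical ligands (*DLK2*, 0.51, adjusted p = 0.210). The genes *NOTCH4*, *DLL4*, *DLK1*, *HES5*, *HEY2*, *HEYL*, *DTX1* and *MAML3* were not analysed here.

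Since *C1orf132* hosts miR-29c and a copy of miR-29b, matches to the seed of these miRNAs (bases 2 to 8, in capitals) were looked for. The miRNAs themselves were not analysed here. The mature sequences from RefSeq (GRCh38.p14, minus strand) lie at chr1:207801865-207801886 for miR-29c-3p and at chr1:207802450-207802472 for miR-29b-3p, and both share 1 seed.
hsa-miR-29c-3p: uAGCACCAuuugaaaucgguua
hsa-miR-29b-3p: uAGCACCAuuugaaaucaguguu
The complementary site TGGTGCT was found in the 3′UTR of the canonical transcript for 1284 of 8379 tested genes with an annotated 3′UTR (15.3%). Of the 8 Notch genes it was found in 1, *NOTCH2*, from base 468 of a 3′UTR of 3756 bases, shown here with the match in capitals.
NOTCH2: tttgtcttcattTGGTGCTtttggttttgc
With 15.3% of the tested genes holding the site, 1 of 8 is near the background, and nothing follows from it for the Notch genes.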

How the data were processed

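Poly(A)-selected RNA of 2 edited and 2 wild-type MCF12A cultures was read single-end over 75 bases. For these libraries the authors deposited 1 table with a normalized signal for 16811 gene symbols in each library. The submitters' processing notes name Salmon, HISAT2 and hg38, and the normalization method is not given in the sources used here. Values of 4172 of 16213 genes above 0 in all libraries (25.7%) were whole multiples of a read step within 0.002 reads. Since whole reads were recovered for this minority of genes only, no count test was used. Read numbers are the smallest that make all 4 values whole, so the true numbers may be multiples of them.

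Groups and replicate numbers came from the labels. log2(value + 1) was fitted with limma 3.58.1 in R 4.3.3 (lmFit, eBayes with trend, no replicate block), with Benjamini-Hochberg adjustment over all genes in the fit. For differences in expression the study's statistics section describes GraphPad Prism and Student's test, and it gives no test for RNA-seq in particular. The scripts were tested on simulated data. Shares were compared by exact permutation in Python 3.11.15. Positions, promoters and miRNAs came from RefSeq on GRCh38.p14, which matched 8478 of the 9590 tested genes by symbol (88.4%). The 3′UTR sequences came from GENCODE transcripts on GRCh37, without coordinates.

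The Notch genes and all gene lists were chosen with earlier results of these data known. Named genes are all Notch genes, each other pathway gene that was called, for roles without one the gene with the highest mean, and the marker genes with the highest and lowest log2 fold change at a mean of at least 10. *NOTCH2NL*, *HES4*, *NRARP*, *NUMB*, *RBPJ*, *GRHL2* and *FN1* were added after their values were seen. The design text calls the replicates biological. Alternatives changed the pseudocount, filter, scaling, variance trend, block and threshold, and left out each library in turn.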

Additional observations from a re-analysis of the deposited data

How the results depend on the processing

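The 5 Notch calls were kept, as the same 5 genes, with a pseudocount of 0.1 or 5, with equal library totals, quantile or cyclic loess normalization, without the variance trend, without the filter, and without either edited library. Equal library totals moved the median log2 fold change of the 9590 genes from 0.09 to -0.03. The adjusted p of 0.001 left 0 of the 5 Notch calls, 0 of the 3 other pathway calls, 1 of the 680 calls over genes with a mean of at least 10 and 0 of the 795 calls over all listed genes, where 4909 had an unadjusted p under 0.05 in limma. Testing only the 4192 genes with a mean of at least 50 gave 419 calls, 228 higher and 191 lower, and 3 Notch calls. *JAG1* and *HES1*, with means of 44.9 and 26.9, were not in that test. A pseudocount of 0.1 gave 517 calls over all listed genes, and the cause was not tested. Leaving out each library in turn gave 4 to 1431 calls over genes with a mean of at least 10, 0 to 248 over all listed genes, 0 to 5 Notch calls and 0 to 5 other pathway calls. Without edited replicate 1, the difference in the share of *NOTCH1* reversed from 7.76 to -0.0882 percentage points (range over left-out libraries -0.0882 to 15.6), and so did 3 log2 fold changes: over left-out libraries *NOTCH2* ranged from -0.34 to 0.039, *NCSTN* from -0.22 to 0.12 and *ITGA6* from -0.96 to 0.40. *CD68* reversed with equal library totals (-0.064), with cyclic loess (-0.028) and without edited replicate 2 (range -0.23 to 0.34).

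Replicates of the 2 groups share only a number, and deviations of the same-numbered libraries correlated at -0.14 across 9590 genes. With the replicate number as a block, 133 genes with a mean of at least 10, 125 of all listed genes, 1 Notch gene (*NOTCH3*) and 1 other pathway gene were called. Crossed pairing, added after the data were seen, gave 1002 and 625 calls over the same tables. With 2 libraries a group, the spread rests on 2 degrees of freedom per gene and on the variance shared across genes.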
